A study of Mus musculus with 14 samples.

Results

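Brain-enriched microRNAs (miRNAs, small RNAs that repress messenger RNAs) were followed in mouse dorsal root ganglia (DRG), where the cell bodies of sensory neurons lie. Every arm and copy of miR-124, miR-9, miR-128, miR-129, miR-137 and miR-153 was taken by name, which gave 15 of the 1123 mature miRNAs measured. The 14 libraries came from 4 groups: CAST/Ei mice with an injured sciatic nerve (3 libraries), naive CAST/Ei mice (3), C57BL/6 mice with the same injury (3) and naive C57BL/6 mice (5). Injury was a crush of the left sciatic nerve for 30 s in males of 8 to 10 weeks, and the naive mice had no treatment. The age and sex of the naive mice, the interval between crush and dissection and the ganglia taken are not given in the sources at hand. Both strains are inbred and carry no engineered allele in the labels, and the ganglia were dissociated before RNA was extracted. Libraries of 1 group are biological replicates according to the design text, and the p-values measure the spread between these libraries.

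A miRNA is cut from a hairpin whose 5′ and 3′ arms are named 5p and 3p, and its seed, bases 2 to 8 of the mature strand, does most of the pairing with target messenger RNAs. miR-124 is the best known miRNA of mature neurons, where it holds down transcripts of non-neuronal cells. miR-9 is expressed in neural progenitors and in neurons, and its arms repress the neuronal gene silencer REST and its partner CoREST. miR-128 limits the excitability of mouse neurons, miR-137 takes part in the maturation of neurons, miR-129-5p represses the potassium channel gene Kcna1, and miR-153 is enriched in neurons. All 6 families are best known from the brain. No brain sample was among the libraries, so the enrichment in brain is background here and was not measured.

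The RefSeq table (GRCm38.p6) held the sequences of 12 of the 15 members, at 10 loci. The miR-9 hairpins are shown because the 3 copies carry the same arms, so that reads of miR-9-5p or miR-9-3p cannot be given to a copy. Capitals mark the mature 5p arm and then the mature 3p arm.
Mir9-1: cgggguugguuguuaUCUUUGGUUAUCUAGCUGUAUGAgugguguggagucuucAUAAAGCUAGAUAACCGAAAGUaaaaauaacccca
Mir9-2: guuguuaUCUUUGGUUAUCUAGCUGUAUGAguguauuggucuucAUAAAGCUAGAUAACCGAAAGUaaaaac
Mir9-3: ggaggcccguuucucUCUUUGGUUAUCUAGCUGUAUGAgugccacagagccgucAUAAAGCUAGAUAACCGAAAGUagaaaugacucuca
Mir9-1 lies at chr3:88215598-88215686 on the plus strand, in an intron of the long noncoding RNA gene Gm3764. Mir9-2 lies at chr13:83738814-83738885 on the plus strand, in an exon of C130071C03Rik, and Mir9-3 at chr7:79505264-79505353 on the plus strand, in an intron of Mir9-3hg.

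The 2 miR-128 hairpins share their 3p arm and differ in their 5p arm, so only the 5p arms tell the copies apart. Capitals again mark the mature arms.
Mir128-1: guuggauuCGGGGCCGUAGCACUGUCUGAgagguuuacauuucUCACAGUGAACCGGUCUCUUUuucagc
Mir128-2: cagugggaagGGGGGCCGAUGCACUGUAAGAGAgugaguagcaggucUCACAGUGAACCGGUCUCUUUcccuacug
Mir128-1 lies at chr1:128202361-128202430 on the plus strand, in an intron of R3hdm1, and Mir128-2 at chr9:112118636-112118711 on the minus strand, in an intron of Arpp21.

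Mir129-2 and Mir129b are shown because they lie on opposite strands of the same stretch of chromosome 2.
Mir129-2: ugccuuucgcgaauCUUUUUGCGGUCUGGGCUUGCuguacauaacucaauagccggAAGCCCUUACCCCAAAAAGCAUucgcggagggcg
Mir129b: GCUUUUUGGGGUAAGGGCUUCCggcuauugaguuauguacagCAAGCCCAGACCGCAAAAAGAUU
Mir129-2 spans chr2:94241364-94241453 on the minus strand, in an intron of Mir670hg, and Mir129b spans chr2:94241378-94241442 on the plus strand. A run of 20 bases of miR-129b-5p is complementary to miR-129-2-3p, and a run of 20 bases of miR-129b-3p is complementary to miR-129-5p. Whether reads were counted by strand is not given in the sources used here. Without strand, reads of the arms on the opposite strands cannot be told apart.

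The mature arms of the most abundant matched members follow, with the seed in capitals.
miR-9-5p: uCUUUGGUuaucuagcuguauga
miR-9-3p: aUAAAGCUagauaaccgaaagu
miR-137-3p: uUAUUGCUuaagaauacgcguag
miR-128-3p: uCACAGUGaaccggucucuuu
miR-129-2-3p: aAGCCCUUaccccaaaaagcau
miR-129-5p: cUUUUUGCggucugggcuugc
miR-153-3p: uUGCAUAGucacaaaagugauc
None of these 7 shares its seed with another of the 918 measured miRNAs that have a sequence in the table. Among the matched members, miR-128-1-5p and miR-128-2-5p share the seed GGGGCCG. Mir137 lies at chr3:118433857-118433929 on the plus strand, in an exon of the noncoding gene Gm26871, and Mir153 at chr12:117250817-117250885 on the plus strand, in an intron of Ptprn2. miR-129-5p is also encoded by Mir129-1, at chr6:29022619-29022691 on the plus strand, in an exon of Gm3294.

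Levels are given in CPM, the authors' read counts scaled to a common total, with library sizes adjusted by the TMM method, which corrects for a few very abundant RNAs. The libraries held 4007706 to 15642360 reads, and 3 reads, taken as the limit below which a level was not read, were worth 0.202 to 0.760 CPM. Limits of this kind cover counting error only. The 4 listed sensory neuron miRNAs were all present and summed to 79705 to 148205 CPM in each library, with miR-138-5p at a mean of 80782 CPM over the 14 libraries. C57BL/6 naive libraries 4 and 5 stood apart: miR-218-5p reached 260520 and 81350.5 CPM there, and their myelinating glia list summed to 8628 and 8044 CPM, against 18222 to 45396 CPM in the other 12 libraries. CAST/Ei naive library 3 stood apart in miR-124, and some other neuron-enriched miRNAs were at their lowest there. C57BL/6 naive libraries 4 and 5, CAST/Ei naive library 3, or all 3 were left out. Where this moved a named difference of a member by more than 1.5 times or turned its direction, a value without them is also given. In RNA from dissociated ganglia, fewer cells of a type and less RNA per cell cannot be told apart.

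Together the 15 members made up 2.26% of the library total in CAST/Ei naive library 3 and 4.97% in CAST/Ei naive library 2, the lowest and highest shares of the 14. miR-124-3p was the most abundant, with a median of 18691 CPM over all libraries, and ranked between 5 and 51 among the 1123 miRNAs. It was followed by miR-9-5p (median 6203 CPM), miR-137-3p (5498), miR-9-3p (2778), miR-128-3p (1776), miR-129-2-3p (252), miR-129-5p (103) and miR-153-3p (71.2). Medians of the other 7 were 32.7 CPM for miR-129b-5p, 30.9 for miR-129-1-3p, 24.8 for miR-124-5p, 8.64 for miR-137-5p, 5.55 for miR-129b-3p, 2.12 for miR-128-2-5p and 0.557 for miR-128-1-5p. Neighbours in this order were not always separate. miR-9-5p exceeded miR-137-3p in 10 of 14 libraries, and their ranges overlapped in all 4 groups. miR-129b-5p exceeded miR-129-1-3p in 8 of 14 libraries and miR-129-1-3p exceeded miR-124-5p in 10, so these 3 had no fixed order. miR-137-3p, by contrast, exceeded miR-9-3p in 14 of 14 libraries.

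miR-124-3p, the arm that acts in neurons, had 15864, 15061 and 17344 CPM in CAST/Ei injured ganglia, against 22354, 23632 and 4736 CPM in CAST/Ei naive ganglia. In C57BL/6 it had 24067.5, 19418 and 20277 CPM in injured ganglia, against 33073, 27060.4, 11039, 17964 and 12848 CPM in naive ganglia. The injured libraries of each strain lay close together, within the wide range of their naive libraries, and the lowest value of all was that of CAST/Ei naive library 3. The spread as a percentage of the mean was 7.20% in CAST/Ei injured, 62.5% in CAST/Ei naive, 11.6% in C57BL/6 injured and 46.2% in C57BL/6 naive ganglia.

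miR-124-5p, the other arm of the hairpin, was scarce. It had 22.7, 21.7 and 29.8 CPM in CAST/Ei injured ganglia, against 22.2, 33.7 and 8.94 CPM in CAST/Ei naive ganglia. C57BL/6 ganglia held 24.3, 20.8 and 22.9 CPM in injured ganglia, against 32.5, 33.3, 25.3, 29.1 and 66.2 CPM in naive ganglia. CAST/Ei naive library 3 was again the lowest, and C57BL/6 naive library 5 the highest. In C57BL/6 the injured libraries lay below all 5 naive ones.

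miR-9-5p, the more abundant arm of miR-9, had 5865, 5851 and 6269.7 CPM in CAST/Ei injured ganglia, against 7974, 10026 and 8514 CPM in CAST/Ei naive ganglia. In C57BL/6 it had 6208, 5206 and 6504 CPM in injured ganglia, against 4353, 4930.5, 6198, 8651 and 4591 CPM in naive ganglia. The CAST/Ei naive libraries lay above the injured libraries of both strains, and C57BL/6 naive library 4 lay among them.

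miR-9-3p had 2874, 2793 and 2990.4 CPM in CAST/Ei injured ganglia, against 4052, 3329 and 4737 CPM in CAST/Ei naive ganglia. Levels in C57BL/6 were 2598, 2679.8 and 2763 CPM in injured ganglia, against 2796, 1936, 2569.6, 900.0 and 2545 CPM in naive ganglia. All 3 CAST/Ei naive libraries lay above the other 11 libraries, and C57BL/6 naive library 4 was the lowest.

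miR-128-3p, the shared arm of both miR-128 hairpins, had 1596, 1535 and 1681 CPM in CAST/Ei injured ganglia, against 2339, 2073 and 2123 CPM in CAST/Ei naive ganglia. C57BL/6 ganglia held 1371, 1815 and 1792 CPM in injured ganglia, against 1086, 1817, 1760.1, 1893 and 1098 CPM in naive ganglia. Here too the CAST/Ei naive libraries were the highest of the 14. Its copy-specific partners were near the limit: miR-128-2-5p lay between 0.803 and 3.97 CPM and miR-128-1-5p between 0 and 1.26 CPM. miR-128-1-5p had 0 reads in CAST/Ei naive library 3, which allows up to 0.516 CPM there.

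miR-137-3p had 5565, 5335 and 5927 CPM in CAST/Ei injured ganglia, against 8078, 8521 and 5290.4 CPM in CAST/Ei naive ganglia. In C57BL/6 it had 4923, 4275 and 5712 CPM in injured ganglia, against 4128, 5431, 7963, 4154 and 11734 CPM in naive ganglia. The groups overlapped within both strains. miR-137-5p, a minor arm, had 6.12, 6.10 and 10.2 CPM in CAST/Ei injured ganglia, against 14.3, 15.8 and 15.8 CPM in CAST/Ei naive ganglia. The CAST/Ei groups did not overlap, while in C57BL/6 the injured libraries (5.03 to 10.3 CPM) lay within the range of the naive ones (6.20 to 17.99 CPM) or below it.

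miR-153-3p had 55.1, 60.1 and 59.2 CPM in CAST/Ei injured ganglia, against 94.2, 82.0 and 83.7 CPM in CAST/Ei naive ganglia. Levels in C57BL/6 were 85.4, 72.3 and 98.5 CPM in injured ganglia, against 70.0, 40.7, 108, 12.1 and 36.7 CPM in naive ganglia. Injured ganglia were lower in every CAST/Ei library, while in C57BL/6 all injured libraries lay above 4 of the 5 naive ones. The lowest library of all was C57BL/6 naive library 4.

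Of the miR-129 members, miR-129-2-3p was the most abundant, at 226, 226 and 306 CPM in CAST/Ei injured ganglia, against 317, 288 and 214 CPM in CAST/Ei naive ganglia. C57BL/6 ganglia held 241, 252 and 210.1 CPM in injured ganglia, against 459, 252, 199.9, 297 and 476 CPM in naive ganglia. miR-129-5p had 105, 131 and 126 CPM in CAST/Ei injured ganglia, against 129.5, 136.8 and 100.4 CPM in CAST/Ei naive ganglia. In C57BL/6 it had 65.2, 89.1 and 98.8 CPM in injured ganglia, against 81.7, 71.2, 57.5, 197 and 152 CPM in naive ganglia. Its 2 highest values were those of C57BL/6 naive libraries 4 and 5. miR-129b-5p ranged from 20.8 to 64.9 CPM and miR-129-1-3p from 21.5 to 69.8 CPM, with overlap between the groups compared. miR-129b-3p had 5.93, 8.67 and 9.97 CPM in CAST/Ei injured ganglia, against 5.65, 4.003 and 4.99 CPM in CAST/Ei naive ganglia, and these groups did not overlap.

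**Figure D1:**
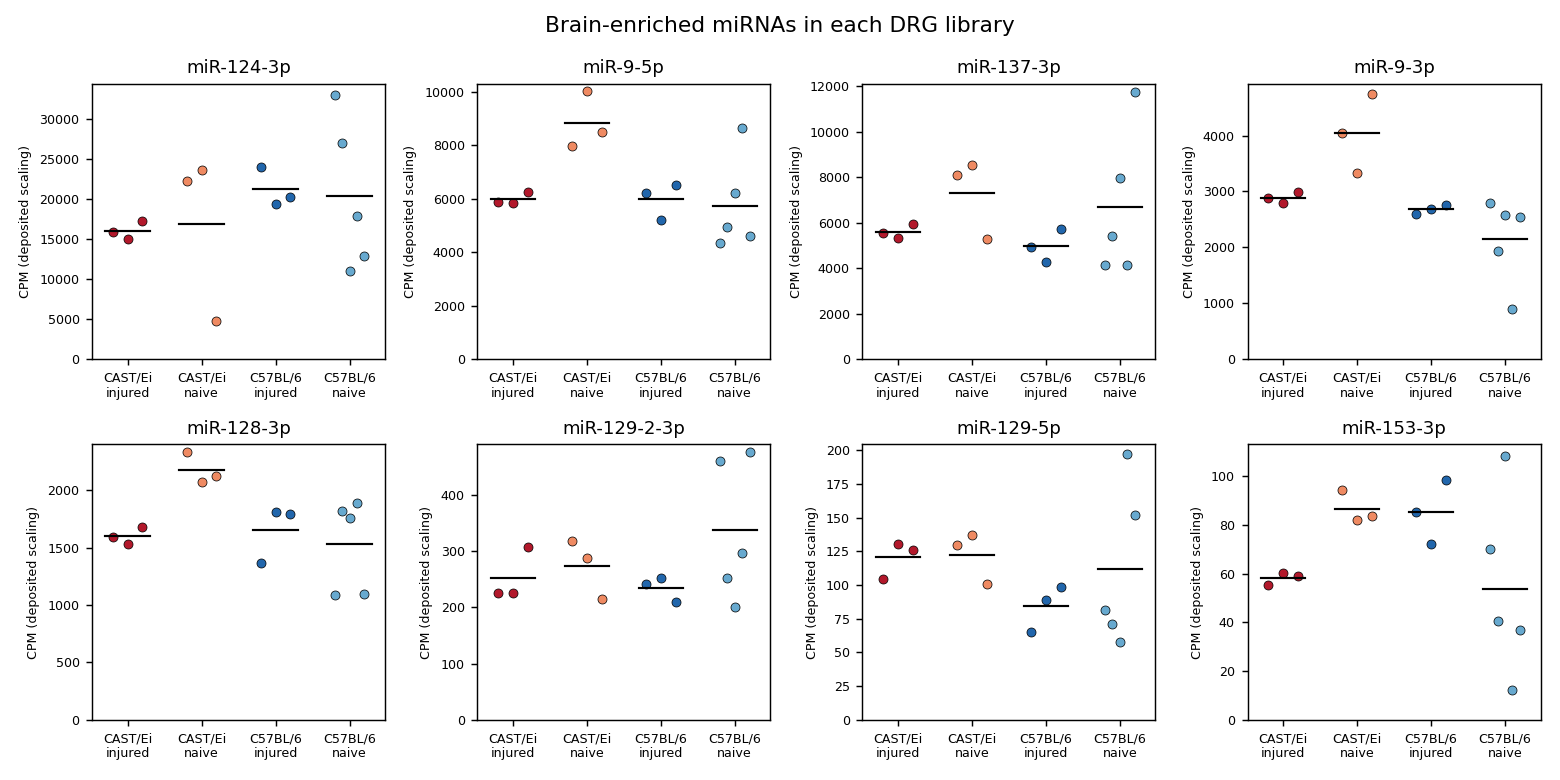
CPM of the 8 most abundant members in each library, by group, with each group's mean as a bar. CAST/Ei naive libraries are the highest of all for miR-9-3p and miR-128-3p, and miR-124-3p in CAST/Ei naive library 3 lies at 4736 CPM, below the other 13 libraries.

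The 2 arms of a hairpin are read in the same library, so their ratio does not depend on library scaling. miR-124-3p exceeded miR-124-5p by 194-fold to 1019-fold, with a median of 700-fold, and miR-137-3p exceeded miR-137-5p by 334-fold to 1835-fold. The lowest miR-124 ratio and the highest miR-137 ratio were both in C57BL/6 naive library 5. miR-9 used both arms: miR-9-5p exceeded miR-9-3p by 1.56-fold to 3.01-fold in 13 libraries and by 9.61-fold in C57BL/6 naive library 4. In CAST/Ei naive library 3 the miR-124 ratio was 529.7, within the range of the other libraries, while both arms had their lowest level of all 14 there. miR-128-3p exceeded miR-128-2-5p by 273-fold to 1911-fold. miR-129-2-3p exceeded miR-129-5p, an arm that Mir129-1 also encodes, by 1.503-fold to 5.62-fold.

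Both arms were at 3 reads or more in every library for 7 member hairpins, and for 213 hairpins of all measured whose arms are named 5p and 3p. The 213 hold only hairpins whose arms share 1 name, so miR-128-2, miR-129-1 and miR-129-2 are not among them. In these, miR-128-3p or miR-129-5p comes from 2 hairpins, so their ratios have no like in the 213. Within CAST/Ei, 2 of the 7 had arm ratios that did not overlap between injured and naive ganglia, as did 16% of the 213. miR-137-3p over miR-137-5p was 909.7, 874 and 579 in CAST/Ei injured ganglia, against 566, 539.6 and 334 in CAST/Ei naive ganglia. miR-129b-5p over miR-129b-3p was 3.28 to 5 in CAST/Ei injured ganglia, against 6.34 to 13 in CAST/Ei naive ganglia. Both ratios rest on a minor arm under 20 CPM. Between injured ganglia of the strains, 3 of the 7 did not overlap, as did 16.9% of the 213. The miR-124 ratio was 697.8, 694.5 and 582 in CAST/Ei, against 990.7, 931 and 887 in C57BL/6. The ratio of miR-129-5p to miR-129-1-3p was 4.06 to 4.35 in CAST/Ei injured ganglia, against 2.24 to 2.70 in C57BL/6 injured ganglia, and that of miR-129b-5p to miR-129b-3p was 3.28 to 5, against 5.45 to 10.97. Between naive ganglia of the strains, 1 of the 7 did not overlap, miR-128-2, against 7.98% of the 213, and between C57BL/6 injured and naive ganglia 0 of the 7, against 6.57%. These ratios are descriptions without a test.

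**Figure D2:**
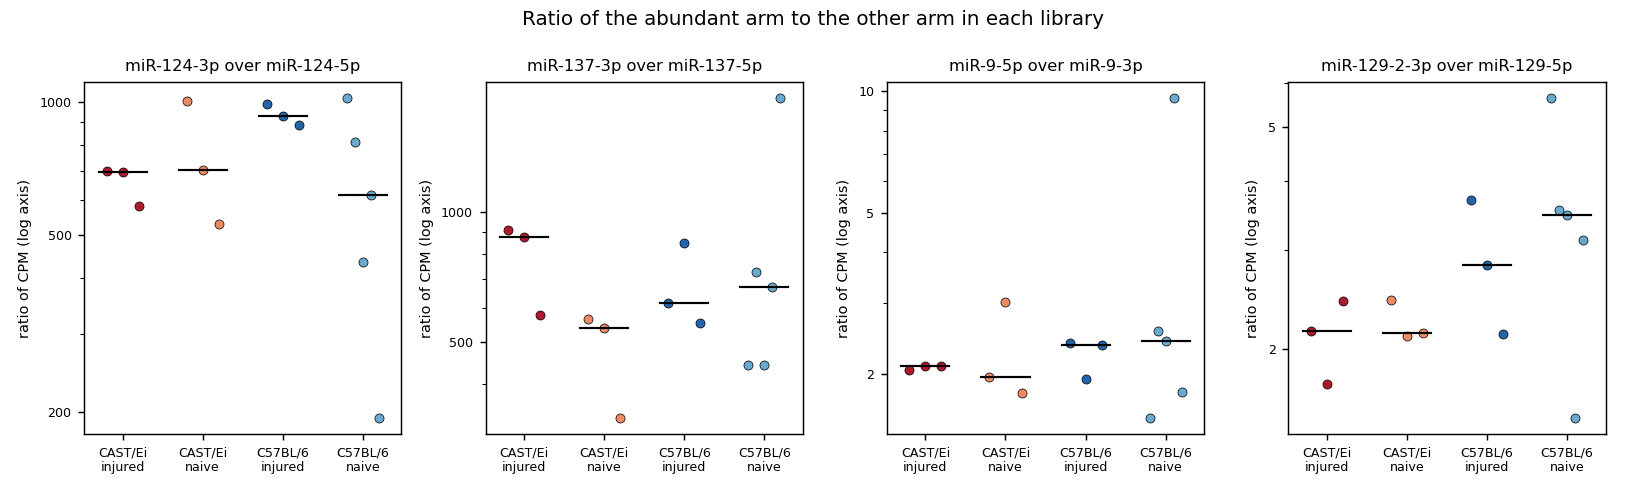
Ratio of the abundant arm to the other arm in each library, by group, on log axes, with each group's median as a bar. Ratios run from 194 to 1019 for miR-124 and from 334 to 1835 for miR-137, while miR-9 stays at 1.56 to 3.01 apart from 9.61 in C57BL/6 naive library 4.

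Differences were tested with limma on log2(CPM + 1) in 1 model of all 14 libraries, over the 638 miRNAs that reached 5 CPM in 3 or more libraries. Of the 15 members, 13 passed that filter, and miR-128-1-5p and miR-128-2-5p did not. No member passed an adjusted p of 0.05 in any of the 5 comparisons. edgeR and DESeq2 on the recovered reads also passed 0 members in each. Log2 differences below are on the log2(CPM + 1) scale, with the standard error (SE) and 95% interval of limma.

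**Figure D3:**
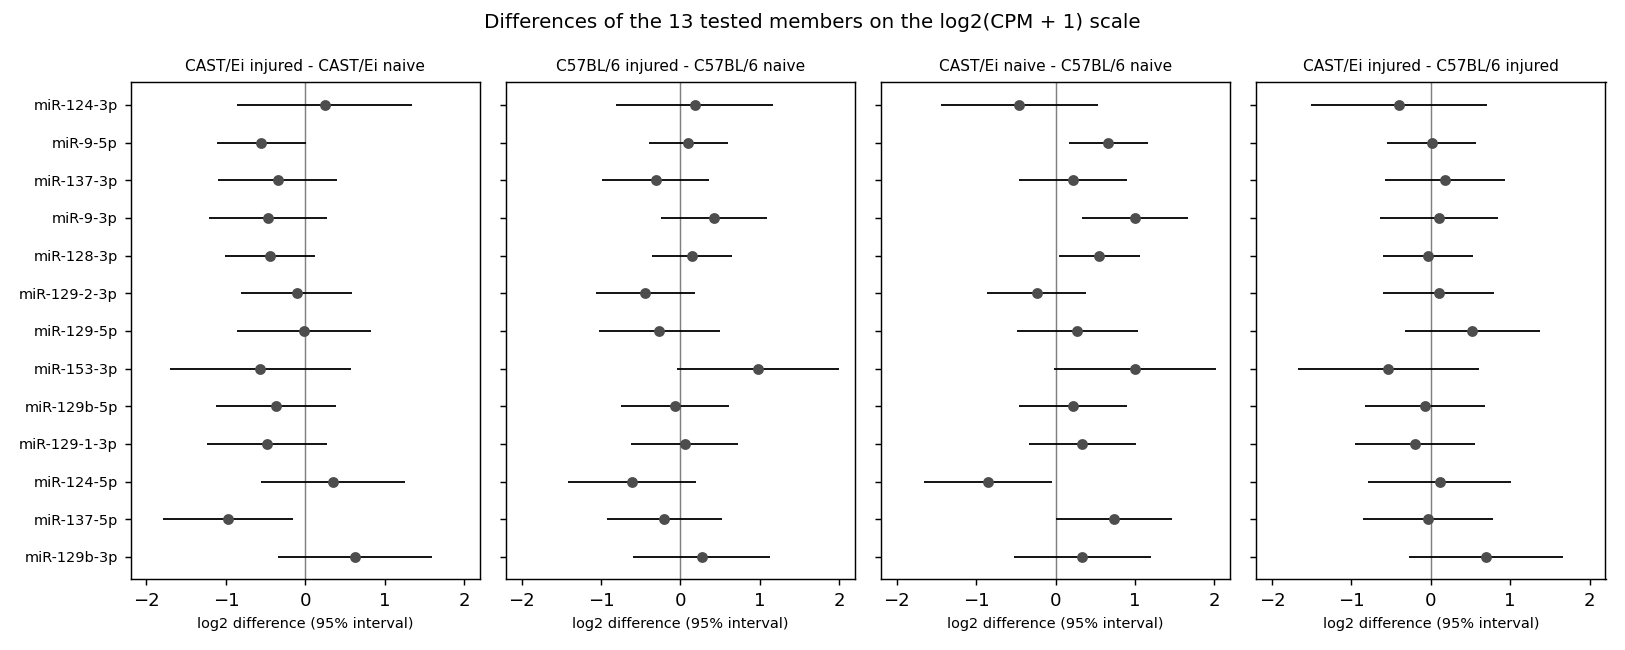
Log2 difference (point) and its 95% interval (line) for the 13 tested members in 4 comparisons, from limma. In CAST/Ei injured against naive ganglia 10 of 13 points lie below 0, and in naive CAST/Ei against naive C57BL/6 ganglia 10 of 13 lie above 0.

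The first comparison asked how injury moved these miRNAs in CAST/Ei ganglia. Levels were lower after injury for 10 of the 13 tested members and for 57.1% of all 638 miRNAs, and higher for 3 members and 42.8% of all. Of the 10, 5 did not overlap between the groups: miR-9-5p, miR-9-3p, miR-128-3p, miR-137-5p and miR-153-3p. miR-9-5p averaged 5995 ± 238 CPM in injured and 8838 ± 1064 CPM in naive ganglia (SD, n = 3 each). miR-128-3p averaged 1604 ± 73.3 CPM in injured and 2178 ± 142 CPM in naive ganglia, and miR-153-3p 58.1 ± 2.62 CPM in injured and 86.6 ± 6.62 CPM in naive ganglia. None passed the test: limma called 0 of the 13 members, while 1.10% of all 638 miRNAs passed, all of them higher after injury. At an unadjusted p under 0.05, 1 member passed, against 6.43% of all miRNAs. Groups without overlap were seen for 16.5% of all miRNAs on the lower side and for 10.2% on the higher side, where miR-129b-3p was the single member.

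The largest difference in CAST/Ei was that of miR-137-5p, at -0.97 (SE 0.38, interval -1.79 to -0.16, limma adjusted p = 0.528). miR-9-5p differed by -0.55 (SE 0.26, interval -1.11 to 0.01, limma adjusted p = 0.667). For miR-9-3p the difference was -0.47 (interval -1.21 to 0.27, limma adjusted p = 0.793), for miR-128-3p -0.44 (interval -1.01 to 0.13, limma adjusted p = 0.746) and for miR-153-3p -0.57 (interval -1.71 to 0.57, limma adjusted p = 0.868). The median over the 13 members was -0.37, against -0.09 over all 638 miRNAs. With plain CPM in place of the deposited scaling, the median over all miRNAs moved to 0.15. The 5 members without overlap stayed below 0 in all alternatives tried, between -1.19 and -0.17. miR-124-3p differed by 0.24 (SE 0.52, interval -0.86 to 1.35, limma adjusted p = 0.938). Without CAST/Ei naive library 3 its difference was -0.52, and that of miR-124-5p was -0.16 in place of 0.35. miR-137-3p differed by -0.35 (interval -1.10 to 0.40, limma adjusted p = 0.870), and by -0.57 without that library.

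Marker lists of other cells moved in the same libraries. Most of a sum can come from a single miRNA, so it need not stand for the others listed. Over the 14 libraries miR-338-3p (glia) averaged 29046 CPM, against 2288 CPM for miR-338-5p. miR-1a-3p (muscle) averaged 8363 CPM, against 1285 CPM for miR-133a-3p. miR-451a (erythrocyte) averaged 10286 CPM, against 862 CPM for miR-144-3p, and miR-138-5p (sensory neuron) 80782 CPM, against 9800 CPM for miR-183-5p. The 4 sensory neuron miRNAs summed to 80908 to 88057 CPM in CAST/Ei injured ganglia, against 105277 to 115818 CPM in CAST/Ei naive ganglia. The 4 myelinating glia miRNAs summed to 30720 to 32124 CPM in injured ganglia, against 37058 to 42868 CPM in naive ganglia. The 4 skeletal muscle miRNAs summed to 6359 to 7393 CPM in injured ganglia, against 8788 to 11362 CPM in naive ganglia. The 4 measured erythrocyte miRNAs summed to 7593 to 9103 CPM in injured ganglia, against 9587 to 13361 CPM in naive ganglia. The 5 measured leukocyte miRNAs summed to 4747 to 5745 CPM in injured ganglia, against 2764 to 4959 CPM in naive ganglia, with overlap. miR-223-3p, the most abundant of them (mean 2876 CPM over the 14 libraries), and miR-150-5p overlapped. By contrast, miR-142-3p, miR-142-5p and miR-511-3p were higher in injured ganglia without overlap. No marker of these 5 lists was at 0 in every library of a group. Their part in the values of the brain-enriched miRNAs was not tested.

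In C57BL/6 ganglia the same crush left the members spread around no difference. Levels were higher after injury for 7 of the 13 tested members and 57.5% of all 638 miRNAs and lower for 6 members and 42.5% of all, with a median log2 difference of 0.06, against 0.12 over all miRNAs. miR-9-5p averaged 5973 ± 680.2 CPM in injured (SD, n = 3) and 5745 ± 1773 CPM in naive ganglia (n = 5), and miR-128-3p 1659 ± 249.9 CPM in injured and 1531 ± 404 CPM in naive ganglia. limma called 0 of the 13, against 3.13% of all miRNAs (2.35% higher and 0.784% lower), and 0 passed at an unadjusted p under 0.05, against 23.7% of all miRNAs. Only miR-124-5p among the tested members did not overlap, and it was lower in injured ganglia, as were 6.27% of all miRNAs without overlap. On the higher side 0 members and 8.62% of all miRNAs did not overlap.

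The difference of miR-124-5p in C57BL/6 was -0.61 (SE 0.38, interval -1.42 to 0.20, limma adjusted p = 0.350). miR-153-3p had the largest difference, 0.97 (SE 0.48, interval -0.05 to 1.99, limma adjusted p = 0.232). Its mean was 85.4 ± 13.1 CPM in injured and 53.5 ± 36.8 CPM in naive ganglia, where library 4 held 12.1 CPM. miR-9-3p differed by 0.42 (interval -0.24 to 1.09, limma adjusted p = 0.433) and miR-124-3p by 0.18 (interval -0.81 to 1.17, limma adjusted p = 0.830). For miR-9-5p the difference was 0.10 (interval -0.40 to 0.60, limma adjusted p = 0.814) and for miR-128-3p 0.15 (interval -0.36 to 0.65, limma adjusted p = 0.727). miR-137-3p differed by -0.31 (interval -0.99 to 0.36, limma adjusted p = 0.564). Without naive libraries 4 and 5, the difference of miR-153-3p was 0.32 (limma adjusted p = 0.580), and it was 0.54 without library 4 alone. Without both libraries the differences were -0.40 for miR-124-5p, 0.16 for miR-9-3p, 0.22 for miR-9-5p, -0.19 for miR-137-3p and -0.02 for miR-124-3p, and 0 members passed. For miR-128-3p the difference was 0.24 without library 4 alone and 0.04 without library 5 alone. The sensory neuron list summed to 79705 to 86306 CPM in C57BL/6 injured ganglia, against 94865 to 148205 CPM in C57BL/6 naive ganglia. Within it only miR-138-5p did not overlap, and miR-96-5p went the other way, by 0.50 (limma adjusted p = 0.389). The glia list was at 36608 to 45396 CPM in injured ganglia, against 8044 to 35829 CPM in naive ganglia, and the 2 measured endothelial miRNAs at 18408 to 20895 CPM in injured ganglia, against 11212 to 16081 CPM in naive ganglia. miR-338-5p of the glia list and miR-126a-5p of the endothelial list overlapped between the groups. The part of these lists in the values of the members was not tested.

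The strains were first compared in naive ganglia. Levels were higher in CAST/Ei for 10 of the 13 tested members and 56.4% of all 638 miRNAs, and lower for 3 members and 43.6% of all. The groups of miR-9-3p and miR-128-3p did not overlap between the strains. miR-9-3p averaged 4039 ± 704 CPM in CAST/Ei (SD, n = 3) and 2149 ± 768 CPM in C57BL/6 ganglia (n = 5), and miR-9-5p 8838 ± 1064 CPM in CAST/Ei and 5745 ± 1773 CPM in C57BL/6 ganglia. limma called 0 of the 13 members, against 11.1% of all miRNAs (5.96% higher and 5.17% lower). At an unadjusted p under 0.05, 5 members passed, against 31.8% of all miRNAs. Groups without overlap on the higher side were seen for 9.40% of all miRNAs, and on the lower side for 0 members and 7.05% of all miRNAs.

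miR-9-3p lay at the threshold, with a difference of 1.0 (SE 0.31, interval 0.34 to 1.66, limma adjusted p = 0.0505). miR-9-5p differed by 0.66 (SE 0.23, interval 0.16 to 1.16, limma adjusted p = 0.0730) and miR-128-3p by 0.55 (SE 0.24, interval 0.04 to 1.06, limma adjusted p = 0.130). miR-137-5p differed by 0.74 (interval 0.01 to 1.47, limma adjusted p = 0.154) and miR-124-5p by -0.85 (interval -1.66 to -0.04, limma adjusted p = 0.142). miR-153-3p differed by 1.0 (interval -0.02 to 2.02, limma adjusted p = 0.162) and miR-124-3p by -0.46 (interval -1.45 to 0.53, limma adjusted p = 0.528). Without C57BL/6 naive libraries 4 and 5, the difference of miR-153-3p was 0.35 (limma adjusted p = 0.435) and that of miR-137-5p 0.46 (limma adjusted p = 0.393). For miR-124-5p it was -0.64 without those 2, -0.35 without CAST/Ei naive library 3 and -0.13 without all 3 (limma adjusted p = 0.240, 0.604 and 0.780). miR-137-3p differed by 0.22 (interval -0.46 to 0.89, limma adjusted p = 0.669), and by 0.34 without C57BL/6 naive libraries 4 and 5. Without all 3 libraries it was at 0.56 (limma adjusted p = 0.157). The median over the 13 members was 0.33, against 0.12 over all miRNAs.

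The calls in this comparison turned on the C57BL/6 naive libraries. So did those over all miRNAs, with 71 in the main model, 21 to 147 under the alternatives and 30 to 147 with single libraries left out. The member counts below were not set against the count over all miRNAs in the same fit, so they cannot be read as particular to the members. Without libraries 4 and 5, limma passed 3 members, all higher in CAST/Ei: miR-9-5p by 0.78 (adjusted p = 0.00945), miR-9-3p by 0.73 (0.0189) and miR-129-5p by 0.80 (0.034). In the main model, which kept both libraries, miR-129-5p differed by 0.27 (limma adjusted p = 0.635). With the replicate number as a block, which leaves those 2 libraries without a partner, limma passed the same 3 members with the same differences (adjusted p = 0.00795, 0.0106 and 0.0336). Left out singly, library 3 gave 3 calls by limma (miR-9-3p, adjusted p = 0.029, miR-137-5p, 0.0301, and miR-153-3p, 0.0372). Leaving out library 4 gave 2 calls by limma (miR-9-5p, adjusted p = 0.0150, and miR-9-3p, 0.0359), and leaving out library 1 or library 5 gave miR-9-3p alone (limma adjusted p = 0.0333 and 0.0373). Without CAST/Ei naive library 3 as well as C57BL/6 naive libraries 4 and 5, miR-9-5p (0.81, limma adjusted p = 0.0182) and miR-129-5p (0.93, limma adjusted p = 0.0241) passed. There miR-9-3p was at 0.61 (limma adjusted p = 0.0567). The difference of miR-124-3p was 0.30 without CAST/Ei naive library 3 alone and 0.10 without all 3 libraries. miR-9-3p, miR-9-5p and miR-128-3p stayed above 0 in all alternatives tried.

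The glia list differed between the strains in the same libraries, at 37058 to 42868 CPM in CAST/Ei naive ganglia, against 8044 to 35829 CPM in C57BL/6 naive ganglia. Within C57BL/6 naive ganglia that list summed to 18222, 35829 and 34716 CPM in libraries 1 to 3. The sensory neuron list overlapped, at 105277 to 115818 CPM in CAST/Ei and 94865 to 148205 CPM in C57BL/6 naive ganglia. The endothelial list was at 18746 to 27549 CPM in CAST/Ei, against 11212 to 16081 CPM in C57BL/6 naive ganglia. Taken singly, miR-126a-3p and miR-126a-5p of that list each overlapped between the strains. Within the glia list only miR-338-3p did not overlap. The part of these lists in the strain difference was not tested.

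In injured ganglia the strains lay closer. Of the 13 tested members 7 were higher in CAST/Ei, as were 45.5% of all 638 miRNAs, and 6 were lower, as were 54.5% of all, with a median log2 difference of 0.01, against -0.06 over all miRNAs. miR-9-5p averaged 5995 ± 238 CPM in CAST/Ei and 5973 ± 680.2 CPM in C57BL/6 injured ganglia (SD, n = 3 each), and miR-128-3p 1604 ± 73.3 CPM in CAST/Ei and 1659 ± 249.9 CPM in C57BL/6. limma called 0 of the 13, against 3.29% of all miRNAs (0.784% higher and 2.51% lower), and 0 passed at an unadjusted p under 0.05, against 8.78% of all miRNAs. miR-9-3p, miR-129-5p and miR-129b-3p were higher in CAST/Ei without overlap, as were 15.4% of all miRNAs. miR-124-3p and miR-153-3p were lower in CAST/Ei without overlap, as were 20.5% of all miRNAs.

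miR-124-3p averaged 16089.7 ± 1158 CPM in CAST/Ei and 21254 ± 2474 CPM in C57BL/6 injured ganglia, a difference of -0.40 (SE 0.52, interval -1.50 to 0.71, limma adjusted p = 0.981). miR-153-3p differed by -0.54 (interval -1.68 to 0.60, limma adjusted p = 0.953). When only the 6 injured libraries were fitted, so that the wide naive libraries did not enter the spread, both passed in limma (adjusted p = 0.0413 for miR-124-3p and 0.0473 for miR-153-3p). Over all miRNAs the alternatives gave 5 to 105 calls in this comparison, and 15 to 24 with single libraries left out, against 21 in the main model. Calls of members in the fit of the 6 injured libraries were not set against all miRNAs in that fit. They cannot be read as particular to these members. miR-9-5p differed by 0.01 (interval -0.55 to 0.57, limma adjusted p = 0.992) and miR-128-3p by -0.04 (interval -0.60 to 0.53, limma adjusted p = 0.985). miR-129b-3p had the largest difference, 0.70 (interval -0.27 to 1.66, limma adjusted p = 0.809). Several marker lists were lower in CAST/Ei injured ganglia without overlap. The glia list summed to 30720 to 32124 CPM in CAST/Ei, against 36608 to 45396 CPM in C57BL/6, and the erythrocyte list to 7593 to 9103 CPM, against 11102 to 14500 CPM. The muscle list summed to 6359 to 7393 CPM in CAST/Ei, against 8868 to 9575 CPM in C57BL/6, and the 3 fibroblast miRNAs to 2219 to 2357 CPM, against 2507 to 2849 CPM. Of the muscle list only miR-1a-3p was lower without overlap. miR-206-3p was higher in CAST/Ei (41.1, 41.3 and 39.3 CPM) than in C57BL/6 (33.8, 24.5 and 29.9 CPM), and the other muscle miRNAs overlapped. The part of these lists in the strain values was not tested.

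Whether injury acted differently in the strains was tested as the CAST/Ei injury difference minus the C57BL/6 injury difference. limma called 0 of the 13 members and 0% of all 638 miRNAs. At an unadjusted p under 0.05, 1 member and 8.15% of all miRNAs passed. That member was miR-153-3p, at -1.54 (SE 0.72, interval -3.07 to -0.01, limma adjusted p = 0.529), lower after injury in CAST/Ei and higher in C57BL/6. Without C57BL/6 naive libraries 4 and 5 it was at -0.89 (limma adjusted p = 0.501). By size, miR-124-5p came next at 0.96 (interval -0.25 to 2.18, limma adjusted p = 0.531). Without CAST/Ei naive library 3 it was at 0.46, and without all 3 libraries that stood apart at 0.24. They were followed by miR-9-3p at -0.89 (interval -1.89 to 0.10, limma adjusted p = 0.529), miR-137-5p at -0.77 (interval -1.87 to 0.32, limma adjusted p = 0.547), miR-9-5p at -0.65 (interval -1.40 to 0.10, limma adjusted p = 0.529) and miR-128-3p at -0.59 (interval -1.35 to 0.17, limma adjusted p = 0.531). Without C57BL/6 naive libraries 4 and 5, miR-137-5p was at -0.49, and without all 3 libraries miR-9-3p was at -0.50. miR-124-3p stood at 0.06 (interval -1.42 to 1.55, limma adjusted p = 0.976), at 0.26 without libraries 4 and 5 and at -0.50 without all 3. Differences were above 0 for 5 members and 40.0% of all miRNAs, and below 0 for 8 members and 60.0% of all. The median over the 13 members was -0.29, against -0.20 over all miRNAs.

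The CAST/Ei naive libraries entered the CAST/Ei injury difference, the naive strain difference and the interaction alike, so these are not independent. CAST/Ei naive libraries 1 and 2 each lay above the member's median over the 14 libraries in 12 of the 13 tested members, and CAST/Ei naive library 3 in 5. The counts were 4, 3 and 9 of 13 in CAST/Ei injured libraries 1, 2 and 3. They were 4, 4 and 9 in the C57BL/6 injured libraries, and between 4 and 7 in the C57BL/6 naive libraries. In CAST/Ei naive library 3 the log2 deviation from the member's median was -1.98 for miR-124-3p and -1.38 for miR-124-5p. The sensory neuron list was at 115818 CPM in that library, the highest of the CAST/Ei naive libraries, and the other tested members there lay within 0.81 of their medians. Most of that sum was miR-138-5p, at 93328 CPM. Of the other neuron-enriched miRNAs listed below, miR-433-3p (291 CPM), miR-330-3p (163.5), miR-326-3p (194) and miR-376a-3p (1072) had their lowest value of the 14 libraries there. miR-134-5p (788 CPM) had its highest, and the rest of that list had neither extreme there.

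**Figure D4:**
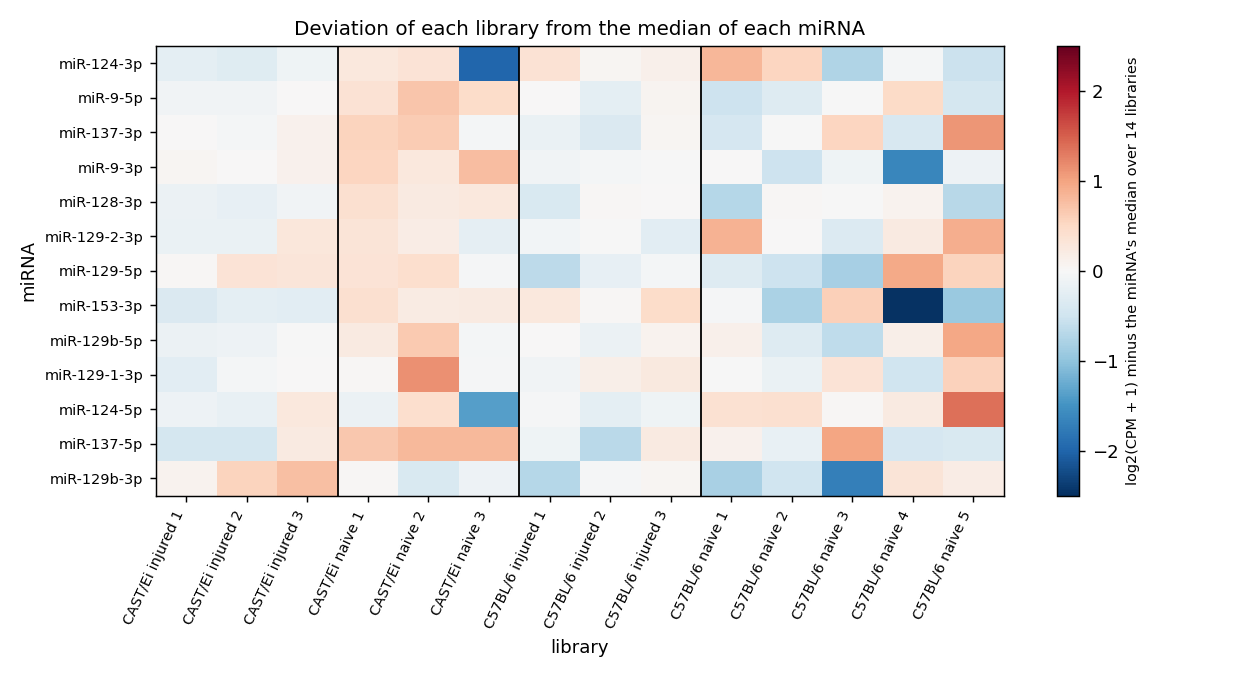
Deviation of each library from each tested member's median over the 14 libraries, on the log2(CPM + 1) scale, with libraries in columns by group and members in rows. CAST/Ei naive libraries 1 and 2 are above the median in 12 of 13 members, a count not taken over all miRNAs. Both miR-124 arms are low in CAST/Ei naive library 3, and miR-153-3p is lowest in C57BL/6 naive library 4.

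Other neuron-enriched miRNAs were taken as a list of 20, all of which passed the filter. By the mean over the 14 libraries, miR-138-5p was highest at 80782 CPM, followed by miR-218-5p at 30808 CPM, miR-183-5p at 9800.1 CPM and miR-182-5p at 9469 CPM. Without C57BL/6 naive libraries 4 and 5 the mean of miR-218-5p over the other 12 libraries was 7453 CPM, below miR-182-5p at 8806 CPM and miR-183-5p at 8588 CPM. After injury in C57BL/6, limma called 1 of the 20 higher, miR-379-5p of an imprinted cluster, by 1.21 (adjusted p = 0.0194), and 0 lower, against 2.35% higher and 0.784% lower over all 638 miRNAs. In naive ganglia it called miR-379-5p higher in CAST/Ei by 1.18 (limma adjusted p = 0.0119) and miR-7b-5p lower by 1.01 (log2 difference -1.01, limma adjusted p = 0.0484), against 5.96% higher and 5.17% lower over all. C57BL/6 naive libraries 4 and 5 held the highest miR-7b-5p values of the 14 libraries (308 and 267 CPM) and the lowest miR-379-5p values (989 and 578 CPM). The differences without them are not given here. For injury in CAST/Ei, for strain in injured ganglia and for the interaction limma called 0 of the 20, against 1.10%, 3.29% and 0% of all. At an unadjusted p under 0.05, 6 of the 20 passed for injury in C57BL/6 and 5 for strain in naive ganglia, against 23.7% and 31.8% of all miRNAs. The counts were 1 for injury in CAST/Ei, 0 for strain in injured ganglia and 1 for the interaction, against 6.43%, 8.78% and 8.15% of all.

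The miRNAs most like 3 of the members were sought by Pearson's r of log2(CPM + 1) over the 14 libraries, among kept miRNAs outside the members. The libraries share their groups and scaling, so r is a description. For miR-124-3p the 5 highest were miR-370-5p (0.79), miR-323-5p (0.77), miR-433-3p (0.77), miR-181b-5p (0.76) and miR-187-3p (0.76). By ranks (Spearman's rho) the same 5 had 0.49, 0.70, 0.47, 0.51 and 0.69. The highest for miR-9-5p were miR-429-3p (0.79), miR-29b-1-5p (0.75), miR-1843a-5p (0.73), miR-30e-3p (0.73) and miR-15a-5p (0.73). For miR-128-3p they were miR-135b-5p (0.76), miR-873a-5p (0.73), miR-29c-5p (0.73), miR-96-5p (0.72) and miR-145a-5p (0.71). Spearman's rho was 0.69 to 0.75 for those of miR-9-5p and 0.43 (miR-96-5p) to 0.65 for those of miR-128-3p. Among the members themselves, miR-9-5p and miR-128-3p had r = 0.77 over the 14 libraries. Arms of 1 hairpin did not always go together: r between miR-9-5p and miR-9-3p was 0.08 over the 14 libraries and 0.72 without C57BL/6 naive libraries 4 and 5. Between miR-124-5p and miR-124-3p it was 0.51 over all libraries and 0.85 without those 2.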

How the data were processed

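Small RNA was sequenced from 14 DRG libraries with the Ion Total RNA-Seq kit after extraction with the miRVana kit, per the labels' protocols. Reads were aligned with Bowtie2, per the submitters' processing notes. The genome build, the miRNA name release and the counting rule are not given in the sources at hand. Each deposited file lists 1123 miRNAs with 1 signal value, named CPM by the authors. Divided by what 1 read is worth, all values come out whole (tolerance 1e-06 reads), and the totals match TMM scaling in edgeR to within 1.04e-05, so the deposited signal is CPM on TMM-scaled library sizes. The plan had assumed plain CPM, and its test was kept.

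The test was limma-trend (limma 3.58.1, R 4.3.3) on log2(CPM + 1), two-sided, with Benjamini-Hochberg adjustment within each comparison over 638 miRNAs, at 0.05. Alternatives were pseudocounts of 0.5 and 5, no filter, a filter of 50 CPM, 3 other scalings, edgeR 4.0.16 and DESeq2 1.42.0 on recovered reads, only the groups compared, the replicate block and libraries left out. The recovery of reads is least certain in C57BL/6 injured library 1, so edgeR was also run without it. That run and the one without CAST/Ei naive library 3 and C57BL/6 naive libraries 4 and 5 were chosen after seeing the data. The fits were tested on simulated data.

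Same-numbered libraries of the 2 naive groups had correlations of 0.11, 0.10 and 0.11 between their deviations from the group means. All were over 0.1, but in numbers 1 and 2 a library of another number correlated more (0.17 and 0.13). In the other comparisons the same-numbered correlations were not all over 0.1. The main model used no pairing in any comparison, and the numbers in the titles entered only the alternative with the replicate block.

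Members were chosen by name, as all arms and copies of the 6 families. Named in each library are the 6 arms miR-124-5p, miR-124-3p, miR-9-5p, miR-9-3p, miR-128-3p and miR-137-3p and members with a median above 100 CPM. miR-137-5p, miR-153-3p and miR-129b-3p were added after their values were seen. Members and lists were chosen with earlier results of these data known.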

Additional observations from a re-analysis of the deposited data

Results flagged for a closer look

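The 24 sets examined were the levels, the arm ratios and the summed share of the members in C57BL/6 naive ganglia, the only group large enough. In 5 of them 1 library lay far from the other 4, by a rule set to flag about 1 in 20 by chance. The sets share the same libraries, and the flagged miR-129 ratios share miR-129-5p, so their number cannot be set against chance. miR-124-5p was 66.2 CPM in library 5, above 33.3 CPM in the next. miR-137-5p was 17.99 CPM in library 3, above 9.32 CPM in the next. In library 4 the ratio of miR-9-5p to miR-9-3p was 9.61, and 1.56 to 2.55 in the other 4. The ratio of miR-129-5p to miR-129-2-3p was 0.665 in library 4, and that of miR-129-5p to miR-129-1-3p was 9.19. Libraries 4 and 5 are the ones with high miR-218-5p, and their part in these values was not tested.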

How the results depend on the processing

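Under 28 alternatives for each comparison (27 for the interaction), the 13 tested members gave 1782 values, of which 86 had the other sign, 0 of these past the threshold, and 17 were past it. For injury in either strain and for the interaction, every alternative gave 0 members past the threshold. For strain in naive ganglia the count was 3 without C57BL/6 naive libraries 4 and 5, 3 with the replicate block, 2 without these and CAST/Ei naive library 3, and 0 to 3 with single libraries left out. For strain in injured ganglia it was 2 with only the groups compared. None of these member counts was set against the count over all miRNAs in the same fit. The replicate block changed no other call of a member.

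The sign of miR-124-3p was not stable. Its injury difference in C57BL/6 was -0.0341 with DESeq2, -0.0394 with edgeR without injured library 1, -0.02 without naive libraries 4 and 5, with or without CAST/Ei naive library 3, and with the replicate block, and -0.0107 to 0.39 with single libraries left out. In CAST/Ei it was -0.0715 with edgeR, with or without C57BL/6 injured library 1, -0.52 without the 3 libraries and -0.52 to 0.64 with single libraries left out. The naive strain difference was 0.10 without the 3 libraries and -0.86 to 0.30 with single libraries left out. The interaction was -0.13 with edgeR, -0.0321 with edgeR without C57BL/6 injured library 1, -0.50 without the 3 libraries and -0.70 to 0.46 with single libraries left out. miR-124-5p after injury in CAST/Ei was -0.16 without the 3 libraries and -0.16 to 0.75 with single libraries left out, and miR-9-5p after injury in C57BL/6 was -0.032 with DESeq2. The cause was not tested.

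Over all miRNAs the calls ranged from 3 to 83 for injury in C57BL/6 (20 in the main model), 3 to 21 for injury in CAST/Ei (7), 21 to 147 for strain in naive ganglia (71), 5 to 105 for strain in injured ganglia (21) and 0 to 8 for the interaction (0). For strain in naive ganglia, 38 were higher and 33 lower in CAST/Ei, against 20 higher and 38 lower with plain CPM. For injury in C57BL/6, 15 were higher and 5 lower, against 15 and 1 with plain CPM. Depth limits the scarcest tested member, miR-129b-3p, which had 4 reads in C57BL/6 naive library 3, the shallowest library.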
